A study of Mus musculus with 46 samples.

Results

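The comparison was between the transcriptomes of WM repopulating cells and control microglia 6 hr after lipopolysaccharide (LPS), chosen by sample title: 4 libraries titled AltRepop at 6 hr against 5 titled ControlAltRepop at 6 hr, 9 of the 24 libraries in the sorted-cell LPS table and of 46 samples in the series. WM repopulating mice were male C57BL/6 animals that ate chow with 600 ppm PLX3397, an inhibitor of CSF1R (the receptor that microglia need to survive), for 14 days and then recovered for 28 days, while control mice ate vehicle chow. Both groups received 0.33 mg/kg LPS intraperitoneally. The mice are named as 2 months old both where the chow and where the LPS injection is described, and the methods give a slightly younger age as their general rule, so the age at the injection is uncertain. The 0 hr groups (3 control and 4 WM repopulating libraries) were the same kinds of mice without LPS, and the 24 hr groups (4 and 4) were collected later after the same dose. Cells came from whole brain hemispheres and were sorted as CD11b+CD45int, so the gate selects by surface protein and does not itself select cells by origin: "WM repopulating" describes the mice, and any resident microglia that survived PLX3397 would be in the same sort. Libraries were treated as separate mice, since the study counts mice within each group, although the labels name no animals.

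Microglia are the resident macrophages of the brain and need CSF1R signalling to survive, so that a CSF1R inhibitor removes them and its withdrawal lets new cells fill the tissue. The study names WM repopulating cells after the white matter. LPS, a component of the bacterial outer membrane, acts mainly through the TLR4 and CD14 receptor complex, which switches on NF-kB target genes such as Tnf and Il1b and, by way of secreted interferon, a large set of interferon-stimulated genes. At the same time homeostatic microglial genes such as P2ry12 and Tmem119 fall. Disease-associated and white matter-associated microglia (DAM and WAM) are known for high Apoe, Axl and Clec7a, genes of lipid handling and phagocytosis, and whether such differences between cells of different origin remain visible during an acute inflammatory response is the question that the 6 hr groups address.

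The values were FPKM (fragment counts scaled by gene length and library size). In the 9 libraries the library size that the FPKM steps imply ran from 5237753 to 7801726 fragments, at which 1 fragment over a 2 kb gene is worth 0.0641 to 0.0955 FPKM. Of 15285 genes listed, 12684 reached 1 FPKM in 3 or more of the 24 libraries and were tested with limma on log2(FPKM + 1), so that differences of weakly expressed genes are understated, and a gene is called where the adjusted p (Benjamini-Hochberg over all tested genes) is under 0.05. The microglial markers P2ry12, Tmem119 and Csf1r were present in every library, at no less than 175, 589.9 and 836 FPKM in the controls and 334, 872 and 879 FPKM in WM repopulating cells. Control replicate 2 stood apart from the other libraries. Its correlation with the other controls averaged 0.938 against 0.955 to 0.967 for the other 4, and 585 genes lay over 1 log2 unit above and 659 over 1 below the mean of those 4 in it. Counted the same way, control replicate 3 had 279 and 342 such genes, and replicates 1, 4 and 5 had at most 111 and 179.

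At 6 hr, 41 genes were called (0.323% of those tested), 27 of them higher (0.213%) and 14 lower (0.11%) in WM repopulating cells. Of the 27 higher genes 18 differed by over 1 log2 unit, and of the 14 lower genes 9 did. At 0 hr, with other mice, 154 genes were called (1.21%), and at 24 hr 503 (3.97%). Both counts fell without any 1 library: at 0 hr to 88 and 75 without control replicates 1 and 2, to 92, 100 and 99 without WM replicates 1, 2 and 4, and to 103 and 108 without the other 2, and at 24 hr to 291 and 318 without WM replicates 2 and 3 and to between 346 and 438 without each of the other 6. The 4 WM repopulating values and the 5 control values did not overlap for 38 of the 41 genes, and for 3.78% of all tested genes. The 41 genes were called on these same values, so their separation follows from the calls and adds no support to them. The 6 hr count also depended on single libraries: it was 75 without control replicate 3, 26 without WM replicate 1 and 23 without WM replicate 2, and between 34 and 48 without any one of the other 6. In a fit of the 9 libraries alone, which has fewer samples from which to estimate the spread, 16 genes were called, 14 of them among the 41 (Apoe, Cd34, Cd36, Chst1, Clec7a, Cspg4, Htra3, Jam3, Mlph, Mtap7d3, Pde2a, Rai14, Stx1a and Tnfsf13b). The other 27, Axl among them (adjusted p = 0.15), had adjusted p from 0.0552 to 0.332 there. With voom on recovered reads 30 genes were called, and 13 of the 41 lost their call.

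Of the 41 genes, 18 were also called at 0 hr (43.9% of the calls at 6 hr and 11.7% of those at 0 hr), 12 higher and 6 lower at both times, and none with opposite signs. These 18 are referred to as persistent, and their number was 11 without control 0 hr replicate 2 or without WM 6 hr replicate 1. All 27 genes higher at 6 hr were also above 0 in the 0 hr difference, with a median log2 difference of 1.24 at 6 hr and 0.65 at 0 hr, and 11 of the 14 lower genes were below 0 at 0 hr, with medians of -1.14 and -0.64. The genes were chosen by their 6 hr values, so only the 0 hr values are free of that choice.

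**Figure D1:**
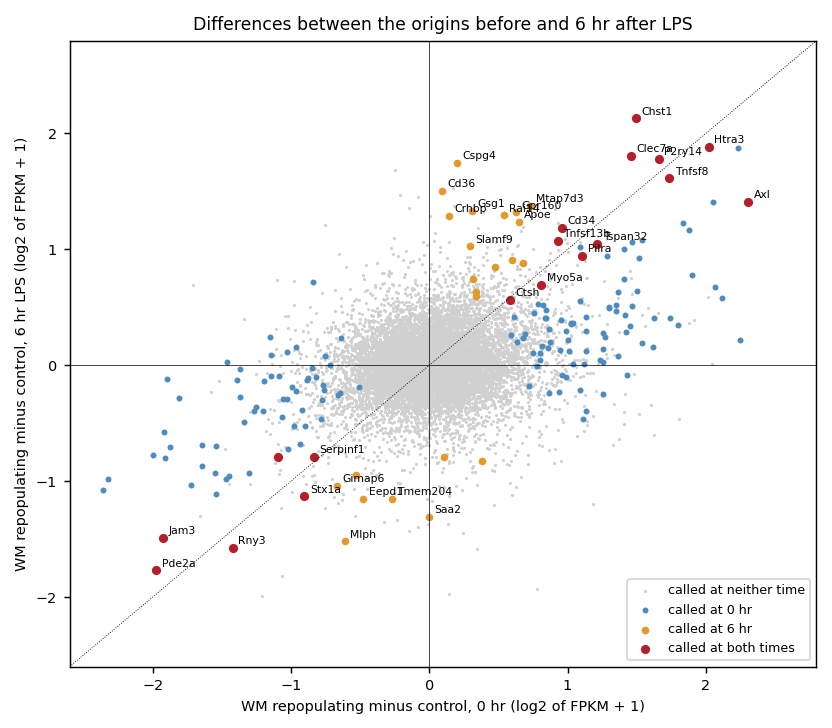
Difference between WM repopulating cells and control microglia, as log2 of FPKM + 1, at 0 hr (x axis) and 6 hr after LPS (y axis) for the 12684 tested genes, 1 point per gene, coloured by the times at which the gene was called; the dotted line marks equal differences. The 18 genes called at both times lie in the upper right and lower left, and Cspg4, Cd36 and Crhbp lie near 0 on the x axis and above 1 on the y axis.

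Among the persistent genes were 2 receptors of phagocytes. Clec7a (Dectin-1, a receptor for beta-glucans of fungal cell walls; GRCm38 chr6:129461591-129472785) stood at 7.28, 5.36, 4.29, 6.18 and 7.97 FPKM in the 5 controls and at 28.7, 24.5, 24.5 and 18.8 FPKM in the 4 WM repopulating libraries at 6 hr. The lowest WM repopulating value was well above the highest control value. The difference was 1.81 ± 0.25 (log2, SE; adjusted p = 0.000328) beside 1.46 at 0 hr (adjusted p = 0.00865). Axl (a TAM receptor that binds Gas6 on dying cells; chr7:25756500-25788924) stood at 6.36, 6.5, 3.39, 7.1 and 2.74 FPKM in controls and at 12.8, 22.2, 10.1 and 16.5 FPKM in WM repopulating cells, again without overlap. Its 6 hr difference was 1.41 ± 0.26 (adjusted p = 0.00922) beside 2.31 at 0 hr (adjusted p = 0.00018) and 2.68 at 24 hr (adjusted p = 8.49e-06). Axl fell with LPS in WM repopulating cells, from 30.6 ± 3.34 to 15.4 ± 5.26 FPKM (mean ± SD, n = 4 and 4; log2 change -0.996, adjusted p = 0.00513), and stood at 5.35 ± 0.354 and 5.22 ± 2 FPKM in controls (n = 3 and 5; -0.10, adjusted p = 0.807). The change of its difference from 0 to 6 hr, -0.90 ± 0.39, was not called (adjusted p = 0.655). Without WM replicate 2 the 6 hr adjusted p of Axl was 0.0667, and the Clec7a call held without each library in turn.

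The largest persistent difference at 6 hr was that of Chst1, which encodes a sulfotransferase that adds sulfate to galactose in keratan sulfate (chr2:92599632-92615252). It measured 11.1, 7.82, 9.44, 8.73 and 9.89 FPKM in controls and 42.9, 57.3, 40.6 and 38.4 FPKM in WM repopulating cells, groups that lay far apart. The difference of 2.13 ± 0.18 (adjusted p = 2.78e-07) compared with 1.49 at 0 hr (adjusted p = 0.000339) and 1.17 at 24 hr (adjusted p = 0.000929), and the LPS change of Chst1 was called in neither origin (-0.46 in controls, adjusted p = 0.0608; 0.17 in WM repopulating cells, adjusted p = 0.504). Htra3, a secreted serine protease (chr5:35652026-35679813), was at 0.667, 1, 2.13, 1.05 and 3.05 FPKM in controls and at 7.66, 11.1, 6.61 and 7.25 FPKM in WM repopulating cells. The lowest WM repopulating library again exceeded the highest control. Htra3 fell with LPS in both origins (-0.99 and -1.14), and its difference, 1.88 ± 0.27 at 6 hr (adjusted p = 0.000448), was 2.02 at 0 hr. The lysosomal protease Ctsh had the smallest 6 hr difference among the higher persistent genes, 0.57 ± 0.10 (adjusted p = 0.00671), with 256 ± 9.78 FPKM in controls and 381 ± 32.8 FPKM in WM repopulating cells (mean ± SD, n = 5 and 4), values that did not overlap. The 0 hr difference of Ctsh was 0.58, and Ctsh fell with LPS in both origins, with log2 changes of -1.05 and -1.07. The calls of Chst1, Htra3 and Ctsh held without each of the 9 libraries.

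In the ligand group, 2 members of the tumour necrosis factor superfamily were persistent. Tnfsf13b, which encodes BAFF, a survival factor of B cells (chr8:10006229-10036000), was at 17.1, 14.7, 15.4, 20.3 and 19.6 FPKM in controls and at 31.8, 34.9, 47.8 and 37.4 FPKM in WM repopulating cells. The groups were separate, with a difference of 1.07 ± 0.13 (adjusted p = 5.58e-05). That difference was 0.93 at 0 hr and 1.08 at 24 hr, although LPS lowered Tnfsf13b in each origin (-1.30 and -1.16; adjusted p = 7.37e-08 and 3.15e-07). Tnfsf8, the ligand of CD30 (chr4:63831202-63861508), was lower in level, with 1.47, 1.41, 3.23, 0.25 and 1.29 FPKM in controls and 11.5, 4.5, 4.64 and 5.86 FPKM in WM repopulating cells, and WM replicate 1 was the highest. Its difference was 1.61 ± 0.33 (adjusted p = 0.0221), and the adjusted p was 0.0618 without control replicate 4, 0.125 without WM replicate 1, 0.0631 without WM replicate 4 and 0.0843 with voom.

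Cd34, Tspan32, Pilra and P2ry14 encode other surface proteins among the persistent genes. Cd34, a sialomucin of blood progenitors and vessels (chr1:194938821-194961292), measured 54.6, 38.4, 40.8, 43.5 and 52.3 FPKM in controls and 96.8, 104, 124 and 96.2 FPKM in WM repopulating cells. Its difference, 1.18 ± 0.14 (adjusted p = 5.7e-05), was 0.96 at 0 hr and 0.57 at 24 hr, held without each library, and none of the other 17 markers of monocytes and bone marrow-derived cells was called by limma or by voom on recovered reads (3 of the 18, Cd34 included, had an unadjusted p under 0.05 in limma). P2ry14, a receptor for UDP-glucose (chr3:59114623-59153492), rose with LPS, from 0.276 ± 0.478 to 4.28 ± 2.33 FPKM in controls and from 2.99 ± 1.19 to 15.6 ± 4.38 FPKM in WM repopulating cells. At 6 hr the values were 5.21, 3.4, 0.72, 5.27 and 6.8 FPKM in controls and 14.8, 22, 12.5 and 13 FPKM in WM repopulating cells, without overlap. The difference of 1.78 ± 0.36 (adjusted p = 0.0211) beside 1.66 at 0 hr was lost without WM replicate 1 (adjusted p = 0.0693) and without WM replicate 2 (0.12), and with a pseudocount of 0.1 (0.174). Pilra, an inhibitory receptor of myeloid cells, also rose with LPS in both origins (1.30 and 1.13) and differed by 0.94 ± 0.20 at 6 hr (adjusted p = 0.0396) and 1.11 at 0 hr. Tspan32, a tetraspanin of blood cells, fell in both (-1.01 and -1.18) and differed by 1.05 ± 0.21 (adjusted p = 0.018) and 1.22. The Tspan32 adjusted p was 0.105 without WM replicate 1, 0.0585 without WM replicate 3 and 0.0671 with voom, while that of Pilra was above the threshold without each of 7 libraries (control replicates 1, 2, 4 and 5 and WM replicates 1, 2 and 4), between 0.0512 and 0.168. Myo5a, an actin motor that carries vesicles, completed the 12 higher genes, with 0.70 ± 0.14 (adjusted p = 0.018) at 6 hr and 0.81 at 0 hr. Its adjusted p was 0.0715 without WM replicate 1 and 0.082 without WM replicate 4.

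Among the 6 lower persistent genes, Pde2a, a phosphodiesterase that degrades cAMP and cGMP (chr7:101421691-101512829), had the largest difference at 6 hr. It was at 6.37, 4.86, 5.14, 5.05 and 4.48 FPKM in controls and 0.69, 0.732, 0.803 and 1.01 FPKM in WM repopulating cells. Every WM repopulating value was far below the lowest control value. The difference was -1.77 ± 0.24 (adjusted p = 0.000328) beside -1.97 at 0 hr and -1.14 at 24 hr, and it held without each library. Jam3, an adhesion molecule of cell junctions (chr9:27097384-27155421), was at 10.4, 10.4, 17.2, 10.8 and 11.3 FPKM in controls and 3.32, 2.51, 3.85 and 4.91 FPKM in WM repopulating cells, also without overlap. The Jam3 difference of -1.49 ± 0.29 (adjusted p = 0.0169; -1.92 at 0 hr) lost its call without WM replicate 1 (adjusted p = 0.0641) or WM replicate 2 (0.0929). Stx1a, a SNARE protein of vesicle fusion (chr5:135023482-135051100), was at 2.85, 2.5, 3.26, 3.3 and 3.13 FPKM in controls and 0.743, 0.894, 0.666 and 1.01 FPKM in WM repopulating cells at 6 hr, without overlap. Its LPS change was called in neither origin, and its difference of -1.13 ± 0.16 (adjusted p = 0.00035) held without each library. Serpinf1 (pigment epithelium-derived factor, a secreted serpin) differed by -0.79 ± 0.17 at 6 hr (adjusted p = 0.0375) and by -0.83 at 0 hr, but its call at 6 hr was lost without control replicate 1, 2, 4 or 5 or WM replicate 1, 2 or 4 (adjusted p up to 0.171), and with voom (0.14). Rny3, a small Y RNA that is bound by the Ro60 protein, differed by -1.58 ± 0.29 (adjusted p = 0.011; 0.0559 without WM replicate 4, 0.0552 in the fit of the 9 libraries alone and 0.274 with voom). It is 101 bases long, rests on 40, 23, 59, 34 and 37 fragments in the controls and 14, 19, 12 and 9 in WM repopulating cells, and has near-identical copies elsewhere in the genome, so its value is uncertain. The sixth lower gene has a clone name only.

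**Figure D2:**
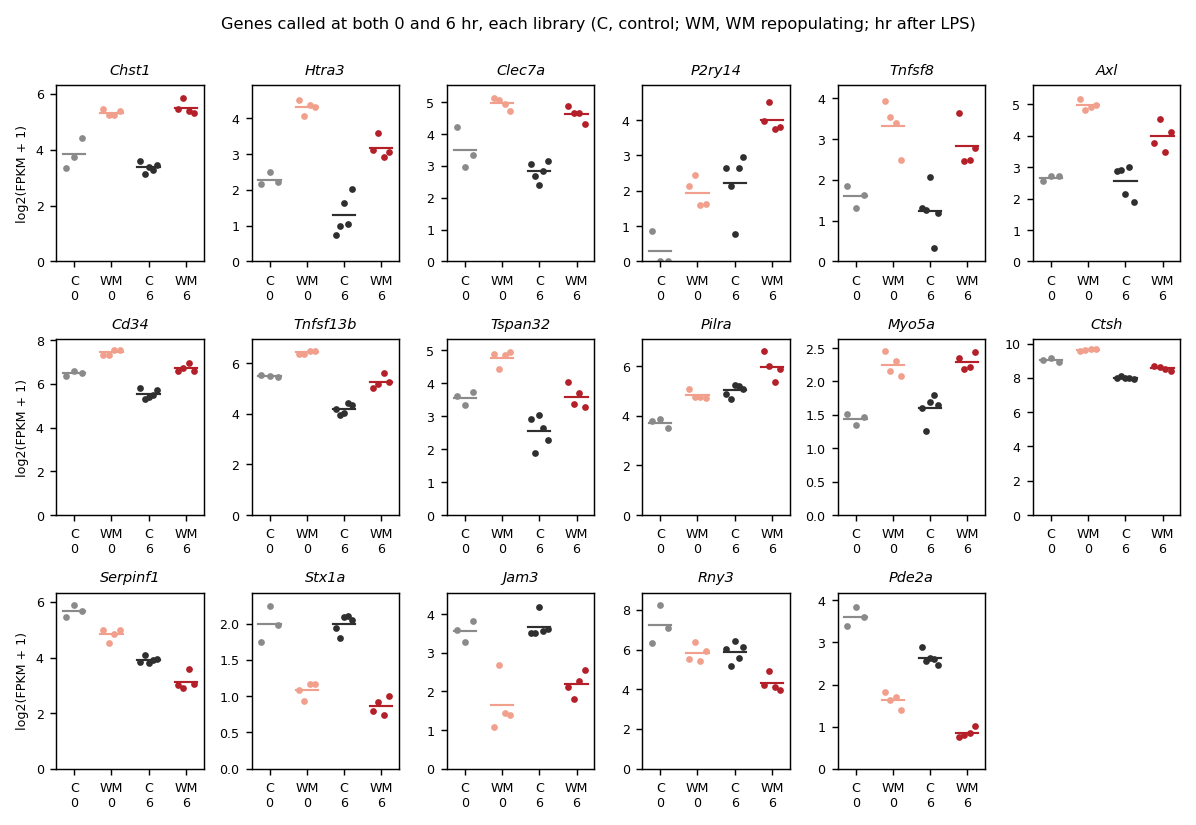
log2(FPKM + 1) of the 17 named genes called at both 0 and 6 hr, 1 point per library and 1 line per group mean, for control (C) and WM repopulating (WM) cells at 0 and 6 hr after LPS. In 12 panels the WM points lie above the control points at both times and in 5 panels under them, apart from Rny3, whose 0 hr groups overlap. P2ry14 and Pilra are higher at 6 than at 0 hr in both origins, and Htra3, Tnfsf13b, Cd34, Tspan32 and Ctsh are among those that are lower.

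Promoters of the persistent genes were searched because these genes differ together at both times, while LPS acts on many promoters through AP-1, NF-kB and interferon response elements. RefSeq holds a promoter (250 bases before to 50 after the start, GRCm38.p6) for 15 of the 18 genes and for 9762 of the 12684 tested genes. The interferon-stimulated response element (ISRE; GAAA, any 2 bases, then GAAA) was present on either strand in 2 of the 15 (13.3%) and in 3.89% of all 9762. TGANTCA, the AP-1 element, was present in 2 of 15 (13.3%) and 6.14%. An NF-kB element (GGG, any 5 bases, then CC), so loosely defined that 70.7% of all promoters hold it, was present in 10 of 15 (66.7%), and GAGGAAGT (PU.1), CACGTG (the E-box of TFEB) and the heat shock element (GAA, any 2 bases, TTC, any 2 bases, then GAA) were in none of the 15, against 4.04%, 11.9% and 0.604%. At these counts the shares are a description of letters in a window. The 3 persistent genes with an ISRE or AP-1 match are P2ry14, Pilra and Tnfsf13b, and their promoters follow, 5′ to 3′ in the direction of the gene, because the first 2 are the named persistent genes that rose with LPS and the third fell. Capitals mark the ISRE and AP-1 matches.
P2ry14, chr3:59153443-59153742, minus strand: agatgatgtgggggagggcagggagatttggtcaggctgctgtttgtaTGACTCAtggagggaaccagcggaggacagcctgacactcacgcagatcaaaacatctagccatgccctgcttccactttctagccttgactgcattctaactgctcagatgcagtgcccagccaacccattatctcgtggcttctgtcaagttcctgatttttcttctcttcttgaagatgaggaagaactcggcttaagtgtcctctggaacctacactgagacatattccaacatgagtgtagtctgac
Pilra, chr5:137836229-137836528, minus strand: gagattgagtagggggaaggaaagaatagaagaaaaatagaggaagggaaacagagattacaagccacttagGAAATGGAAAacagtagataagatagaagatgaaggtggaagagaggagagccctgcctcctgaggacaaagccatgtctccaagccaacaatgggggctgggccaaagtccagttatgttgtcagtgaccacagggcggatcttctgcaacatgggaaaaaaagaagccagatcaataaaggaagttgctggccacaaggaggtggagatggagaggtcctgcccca
Tnfsf13b, chr8:10006383-10006682, plus strand: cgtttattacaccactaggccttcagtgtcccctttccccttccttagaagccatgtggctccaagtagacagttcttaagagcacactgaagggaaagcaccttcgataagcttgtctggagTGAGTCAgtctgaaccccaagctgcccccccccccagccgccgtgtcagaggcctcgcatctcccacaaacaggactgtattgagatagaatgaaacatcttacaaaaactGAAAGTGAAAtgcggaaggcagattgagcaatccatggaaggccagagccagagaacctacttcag
In the windows shown, the AP-1 match of P2ry14 begins 202 bases before the start, the ISRE match of Pilra 178 bases before it, and the AP-1 and ISRE matches of Tnfsf13b 127 and 16 bases before it. RefSeq lists several starts for some genes, a gene counts as holding a motif where any of its windows does, and 1 window per gene is shown. P2ry14 has 4 windows, 2 with an AP-1 match and 2 without one, and Tnfsf13b has 2, both with an AP-1 match and 1 with an ISRE match, while Pilra has 1. Which starts these cells use was not tested.

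Of the 41 genes called at 6 hr, 15 were higher and not called at 0 hr. Cspg4, 1 of them, encodes the NG2 proteoglycan of oligodendrocyte precursors and pericytes (chr9:56865104-56899870). It stood at 0.0816, 0.0389, 0.0893, 0.156 and 0 FPKM in the controls, or 4, 2, 5, 9 and 0 fragments, and at 3.25, 3.93, 1.13 and 2.74 FPKM in WM repopulating cells, or 204, 205, 66 and 137 fragments. All 4 WM repopulating libraries were above 1 FPKM, while the controls and both 0 hr groups (at most 0.319 FPKM) were below it. With 1 other library at 1 FPKM, at 24 hr in WM repopulating cells, Cspg4 passed the filter only through the group where it is high and had to differ, so its p-values are a description. The difference was 1.75 ± 0.18 (adjusted p = 8.17e-06) beside 0.20 at 0 hr, and its change from 0 to 6 hr was called (1.54 ± 0.28, adjusted p = 0.0415). The 0 hr groups did not overlap either, at 0, 0.0902 and 0.0194 FPKM in controls and 0.118, 0.177, 0.319 and 0.159 FPKM in WM repopulating cells, levels at which log2(FPKM + 1) understates a difference. The ratio of the WM repopulating to the control mean was 5.3 at 0 hr and 37.8 at 6 hr, both on means under 0.1 FPKM in the controls. The 4 other oligodendrocyte precursor markers in the table stayed under 1 FPKM in all 9 libraries. At 24 hr Cspg4 was at 0.0431 ± 0.0607 FPKM in controls and 0.842 ± 0.273 FPKM in WM repopulating cells (adjusted p = 0.0164). The 6 hr call held without each library.

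Cd36, a scavenger receptor that takes up oxidised lipids and fatty acids (chr5:17781690-17888959), was at 2.17, 1.12, 0.366, 1.06 and 0.972 FPKM in controls and 5.78, 5.82, 3.44 and 4.72 FPKM in WM repopulating cells at 6 hr. At 0 hr the origins overlapped, with 6.1, 2.29 and 3.17 FPKM in controls and 6.39, 3.91, 2.94 and 3.07 FPKM in WM repopulating cells. Controls fell with LPS (-1.16, adjusted p = 0.00159), whereas the WM repopulating change was 0.25 (adjusted p = 0.485). The 6 hr difference was 1.50 ± 0.25 (adjusted p = 0.00399), with the call held without each library, but the change of the difference, 1.41 ± 0.39, was not called (adjusted p = 0.39). Apoe, the main lipid carrier of the brain (chr7:19696244-19701310), was at 749.6, 530.2, 464, 611 and 529.7 FPKM in controls and 1516, 1692, 936 and 1349 FPKM in WM repopulating cells at 6 hr. The groups were separate at 6 hr and overlapped at 0 hr (2538, 1628 and 1604 against 3291, 3637, 2775 and 2267 FPKM). Apoe fell with LPS in both (-1.72 and -1.13), its difference was 1.24 ± 0.23 (adjusted p = 0.011) at 6 hr, 0.65 (adjusted p = 0.291) at 0 hr and 1.83 (adjusted p = 9.49e-05) at 24 hr, and the 6 hr adjusted p was 0.0566 without WM replicate 1 and 0.072 without WM replicate 2.

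Rai14, an actin-binding ankyrin repeat protein (chr15:10568971-10719267), had the largest rise with LPS among these 15 genes. It was under 1.2 FPKM in every 0 hr library, and at 6 hr at 7.97, 5.88, 5.43, 7.62 and 6.44 FPKM in controls and 16.3, 19.5, 20.2 and 15 FPKM in WM repopulating cells. The rise was 2.64 in controls and 3.40 in WM repopulating cells, and the 6 hr difference 1.29 ± 0.18 (adjusted p = 0.000328). Crhbp, the binding protein of corticotropin-releasing hormone, was at 1, 0, 0, 0 and 5 fragments in the controls and 15, 32, 17 and 18 in WM repopulating cells, with a difference of 1.29 ± 0.21 (adjusted p = 0.00293) at levels of at most 2.94 FPKM. The 4 WM repopulating libraries at 6 hr were the only ones of the 24 to reach 1 FPKM, so Crhbp passed the filter through the group where it is high and had to differ. Mtap7d3, a microtubule-associated protein, was at 0.539 ± 0.148 FPKM in controls and 2.98 ± 0.154 FPKM in WM repopulating cells, a difference of 1.37 ± 0.20 (adjusted p = 0.000448; 0.73 at 0 hr). The calls of Rai14, Crhbp and Mtap7d3 held without each library, but with a pseudocount of 0.1 the adjusted p was 0.0643 for Rai14 and 0.0552 for Crhbp.

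The other higher genes included antigen presentation, lysosomal and signalling genes. H2-DMa, which loads peptides on MHC class II (chr17:34119693-34139101), was at 195, 142, 166, 151 and 210.0 FPKM in controls and 277, 325, 352 and 281 FPKM in WM repopulating cells, a difference of 0.84 ± 0.14 (adjusted p = 0.00276; 0.47 at 0 hr). Slamf9, a SLAM family receptor of myeloid cells, differed by 1.03 ± 0.18 (adjusted p = 0.0055) with 59.5, 27.9, 61.8, 41.5 and 67 FPKM in controls and 83.7, 114, 111 and 99.3 FPKM in WM repopulating cells. Arsb, a lysosomal sulfatase, differed by 0.60 ± 0.11 (adjusted p = 0.011; 0.0764 without WM replicate 2). All 3 fell with LPS in controls (log2 changes of -1.29, -1.52 and -1.60) and in WM repopulating cells (-0.92, -0.78 and -1.34). In none did the groups overlap at 6 hr. P2rx7, an ATP-gated channel, differed by 0.63 (adjusted p = 0.0417), Rnf128, an E3 ubiquitin ligase, by 0.91 (0.0166), Trps1, a GATA-type repressor, by 0.88 (0.0449), Eya4, a transcriptional coactivator, by 0.74 (0.0269), the orphan receptor Gpr160 by 1.32 (0.0269) and Gsg1 by 1.33 (0.0498). These 6 calls depended on single libraries. That of Rnf128 was lost without WM replicate 1 or 2 (adjusted p up to 0.0714) and that of Gpr160 without control replicate 2 or 4 or WM replicate 1, 2 or 4 (up to 0.125). That of Trps1 was lost without control replicate 2, 4 or 5 or WM replicate 1, 2 or 3 (up to 0.209), and that of Eya4 without control replicate 1, 2, 4 or 5 or WM replicate 2 or 4 (up to 0.14). Those of P2rx7 and Gsg1 were lost without control replicate 1, 2 or 4 or any WM replicate (up to 0.159 and 0.154). With voom the adjusted p was 0.0653 for Gpr160, 0.0573 for Gsg1 and 0.0531 for Eya4.

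Of the 8 lower genes called at 6 hr and not at 0 hr, 7 have a gene name. Mlph (melanophilin, which links Rab27a vesicles to myosin Va; chr1:90915024-90951142) was at 19.4, 11.8, 20.3, 17.3 and 14.4 FPKM in controls and 3.69, 4.47, 5.39 and 7.22 FPKM in WM repopulating cells. The groups did not overlap, the difference was -1.52 ± 0.24 (adjusted p = 0.00192; -0.61 at 0 hr, adjusted p = 0.36), and the call held without each library. Mlph fell with LPS in WM repopulating cells (-1.09, adjusted p = 0.00135) and the control change was -0.19 (adjusted p = 0.594), but the change of the difference, -0.91 ± 0.36, was not called (adjusted p = 0.632). Igf1r, the receptor of insulin-like growth factor 1 (chr7:67952257-68233668), was at 3.62, 2.99, 2.36, 2.83 and 2.55 FPKM in controls and 0.813, 0.49, 1.49 and 1.37 FPKM in WM repopulating cells, a difference of -0.95 ± 0.18 (adjusted p = 0.011; -0.53 at 0 hr). Eepd1, of the exonuclease-endonuclease-phosphatase family, differed by -1.15 ± 0.23 (adjusted p = 0.0206) and Gimap6, a GTPase of the immunity-associated family, by -1.04 ± 0.21 (0.0186). Without WM replicate 1 the adjusted p was 0.0572 for Igf1r, 0.101 for Eepd1 and 0.0558 for Gimap6, without WM replicate 2 0.0792, 0.108 and 0.0693, and without WM replicate 3 0.08 for Gimap6. With voom that of Gimap6 was 0.0623.

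Saa2 and Tm4sf1 rose with LPS in controls (2.07 and 1.25), beside changes of 0.76 (adjusted p = 0.04) and 0.36 (adjusted p = 0.0968) in WM repopulating cells. The change of their difference from 0 to 6 hr was not called (adjusted p = 0.567 and 0.39). Saa2, an acute phase serum amyloid gene that is nearly identical to Saa1, was listed at 0 in all 7 libraries at 0 hr, and at 6 hr at 3.23, 3.34, 1.18, 7.54 and 2.82 FPKM in controls and 0.21, 1.52, 1.13 and 0.264 FPKM in WM repopulating cells, from 12, 13, 5, 33 and 9 and 1, 6, 5 and 1 fragments. The highest WM repopulating value exceeded the lowest control value, and the difference was -1.31 ± 0.27 (adjusted p = 0.0269). Tm4sf1, a membrane protein of the L6 family, was also listed at 0 in the 3 controls at 0 hr, and at 6 hr at 1.99, 1.48, 0.983, 1.61 and 1 FPKM in controls and 0.202, 0.568, 0.145 and 0.678 FPKM in WM repopulating cells (-0.79 ± 0.16, adjusted p = 0.0221). Tm4sf1 reached 1 FPKM in 4 control libraries at 6 hr and in no other, and Saa2 in 5 control and 2 WM repopulating libraries at 6 hr, so both passed the filter through the group where they are high, and their differences are a description. Tmem204, a transmembrane protein known from vessels, fell with LPS (log2 changes of -2.45 in controls and -3.34 in WM repopulating cells), and differed by -1.15 ± 0.24 at 6 hr (adjusted p = 0.0269). The call of Saa2 was lost without control replicate 1, 2 or 4 or WM replicate 1 or 4 (adjusted p up to 0.133), that of Tm4sf1 without control replicate 1, 2 or 4 or WM replicate 1 or 3 (up to 0.112), and that of Tmem204 without control replicate 1 or 4 or WM replicate 2 or 3 (up to 0.169). With voom the adjusted p was 0.19 for Saa2, 0.158 for Tm4sf1 and 0.163 for Tmem204.

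**Figure D3:**
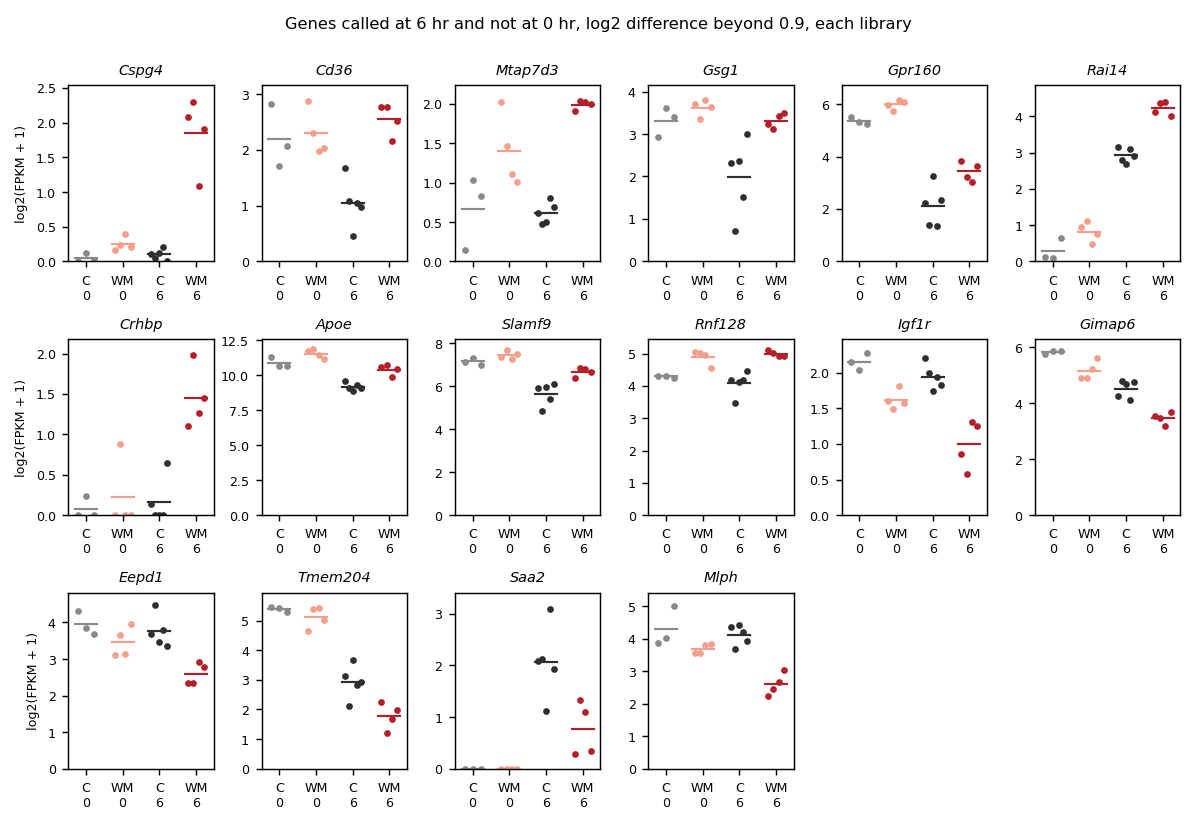
log2(FPKM + 1) of 16 named genes called at 6 hr and not at 0 hr, 1 point per library and 1 line per group mean, for control (C) and WM repopulating (WM) cells at 0 and 6 hr after LPS, ordered by the 6 hr difference. Cspg4 is near 0 outside the WM repopulating 6 hr group, Crhbp is at 0 or low there, with 1 WM repopulating library at 0 hr (0.848 FPKM) just under the lowest at 6 hr (1.14 FPKM), Cd36 falls with LPS in the controls, Rai14 and Saa2 rise in both origins, and Mlph and Igf1r are lowest in WM repopulating cells at 6 hr.

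The test of the change from 0 to 6 hr called 3 genes (0.0237%), all with a more positive difference at 6 hr and none with a more negative one by limma (913 had an unadjusted p under 0.05 in either direction, and voom on recovered reads called 0). They were Cspg4, Myo18b and 1 gene with a clone name. Myo18b, an unconventional myosin of muscle (chr5:112688876-112896461), was at 4.55, 3.88 and 3.54 FPKM in controls and 0.475, 0.344, 0.0776 and 0.388 FPKM in WM repopulating cells at 0 hr. After LPS it was at 0.337, 0.549, 0.955, 0.505 and 0.738 and 0.0619, 0.149, 0.0833 and 0.0195 FPKM. The groups were separate at both times, but the difference went from -1.92 (adjusted p = 2.58e-07) to -0.57 (adjusted p = 0.083), a change of 1.35 ± 0.22 (adjusted p = 0.0261), beside LPS changes of -1.63 in controls (adjusted p = 1.47e-08) and -0.28 in WM repopulating cells (adjusted p = 0.141). Myo18b reached 1 FPKM only in the 3 controls at 0 hr, through which it passed the filter. Its 6 hr levels were all under 1 FPKM, where log2(FPKM + 1) understates differences: the means were 3.99 ± 0.514 and 0.321 ± 0.171 FPKM at 0 hr (n = 3 and 4) and 0.617 ± 0.237 and 0.0785 ± 0.0541 FPKM at 6 hr (n = 5 and 4), so WM repopulating cells stood at a ratio of 0.0805 to controls at 0 hr and 0.127 at 6 hr. The count of called changes was 0 with voom or with only the groups compared, and 0 or 1 without each of 10 of the 16 libraries at 0 and 6 hr. None of the 18 persistent genes had a called change.

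The 154 genes called at 0 hr mostly kept their sign, since 134 (87.0%) had the same sign at 6 hr, with medians of 1.14 at 0 hr and 0.39 at 6 hr for the 91 higher genes and -1.14 and -0.36 for the 63 lower genes. These genes were chosen on their 0 hr values, which are a description only. Across the 154 genes the 0 and 6 hr differences had a Pearson r of 0.766, and across all 12684 tested genes 0.235 (across genes, which are not independent, and without shared libraries). The 154 genes were picked for large 0 hr differences of both signs, which by itself raises r, so these values of r are not comparable. Of the 91 higher genes 37 had an unadjusted p under 0.05 at 6 hr with the same sign and 21 had groups that did not overlap, beside 5.42% and 2.11% of all tested genes in that direction. Of the 63 lower genes 28 and 14 did, beside 3.75% and 1.66%. Ly9, a SLAM family receptor, was an example, at 10.7, 12.4, 9.28, 8.76 and 12.9 FPKM in controls and 16.9, 22.8, 15.1 and 14.7 FPKM in WM repopulating cells at 6 hr. These values did not overlap, but the difference was 0.63 ± 0.16 with adjusted p = 0.0854, beside 1.36 and 0.000206 at 0 hr. Cst7, H2-K1 and Ctsd were called at neither time. Cst7, a cystatin raised in DAM, differed by 1.02 at 0 hr (adjusted p = 0.06) and by -0.13 at 6 hr (adjusted p = 0.935), after a rise with LPS in controls (1.65, adjusted p = 1.37e-05) and 0.50 in WM repopulating cells (adjusted p = 0.113). The change of the Cst7 difference from 0 to 6 hr, -1.15, was not called (adjusted p = 0.523), and without control replicate 2 the 6 hr difference was -0.06. H2-K1, an MHC class I heavy chain, differed by 0.76 (adjusted p = 0.203) and 0.05 (adjusted p = 0.981; 0.30 without control replicate 2), and Ctsd, a lysosomal protease, by 0.50 (0.344) and 0.46 (0.443).

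At 24 hr, in other mice again, 14 of the 18 persistent genes were called with the same sign and 4 were not called. Those 4 were Pilra, Tspan32, Ctsh and the gene with a clone name. Of all 27 genes higher at 6 hr, 15 were called higher at 24 hr and 26 were above 0, and of the 14 lower genes 6 were called and 12 were below 0. Beside these, 213 of all 12684 tested genes were called higher and 290 lower at 24 hr (3.97% together). The signs of all tested genes at 24 hr were not counted. For Axl and Apoe the 24 hr difference was larger in value than that at 6 hr (2.68 against 1.41, and 1.83 against 1.24), and for Arsb it was -0.12 (adjusted p = 0.67). The differences between times other than 0 and 6 hr were not tested.

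The 6 hr groups overlapped for Tnf, Il1b, Cd14, Tlr2, Ccl3 and Nfkbia, genes of the response to LPS. Tnf, the central cytokine of the response, was at 205, 637, 145, 217 and 174 FPKM in controls and 202, 218, 177 and 160.1 FPKM in WM repopulating cells, Il1b at 98.1, 1238, 87.5, 131 and 89.3 and 139, 136, 60.5 and 59.6 FPKM. In both genes control replicate 2 was far above every other library. The same library was highest for Cd14, the LPS co-receptor (2450.3, 12770.0, 1457, 4149.9 and 2161 FPKM in controls and 2123, 1990.5, 2791 and 1976 FPKM in WM repopulating cells), for Tlr2, a receptor of bacterial lipoproteins (335, 2504, 185, 889 and 243 and 401, 416, 423 and 293), and for the chemokine Ccl3 (1249, 10342, 822, 1334 and 960.4 and 1058, 992, 992 and 878). With all 9 libraries the differences were -0.32 for Tnf, -0.86 for Il1b, -0.60 for Cd14, -0.42 for Tlr2, -0.78 for Ccl3 and -0.26 for Nfkbia, the inhibitor of NF-kB. Without control replicate 2 they were 0.04, -0.14, -0.11, 0.16, -0.13 and 0.06, so Tnf, Tlr2 and Nfkbia changed sign, and none was called either way (adjusted p from 0.624 to 0.86 with it and from 0.985 to 0.997 without it). The monocyte attractants Ccl2 (0.31, adjusted p = 0.721; 0.13 without control replicate 2) and Ccl12 (0.38, 0.732; 0.64 without it), Il6 (0.25, 0.903; 0.52 without it) and the B cell attractant Cxcl13 (1.05, 0.612; 0.50 without it) were not called. Isg15, a ubiquitin-like interferon-stimulated gene, was at 234 ± 62.7 FPKM in controls and 239.8 ± 79.6 FPKM in WM repopulating cells, a difference of 0.03 ± 0.34 (adjusted p = 0.991; 0.10 without control replicate 2), after rises of 4.68 and 4.77. Tlr3, a receptor for double-stranded RNA, differed by 0.70 ± 0.17 (adjusted p = 0.0726), without overlap of the groups.

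No homeostatic microglial gene was called at 6 hr. P2ry12, an ADP receptor that guides microglial processes, fell with LPS from 3008 ± 314 to 284 ± 89.2 FPKM in controls and from 2559 ± 306 to 391 ± 61.4 FPKM in WM repopulating cells (mean ± SD), and the 6 hr difference was 0.50 ± 0.21 (adjusted p = 0.448). Tmem119 differed by 0.33 ± 0.26 (adjusted p = 0.771), Sall1, a microglial transcription factor, by 0.22 ± 0.15 (0.732; 0.12 without control replicate 2) and Csf1r, the target of PLX3397, by -0.06 ± 0.18 (0.963; -0.0032 without control replicate 2). Of the 34 homeostatic genes tested, 24 were above 0 at 6 hr. The 2 called lower at 0 hr, Crybb1 (-1.47, adjusted p = 0.03) and Upk1b (-1.30, 0.0153), were still below 0 at 6 hr. Their 6 hr differences were -0.99 (adjusted p = 0.196) and -0.93 (0.0918). These values do not show that the origins are equal. In bulk sorted samples, fewer cells that express a gene and less RNA of it per cell cannot be told apart.

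**Figure D4:**
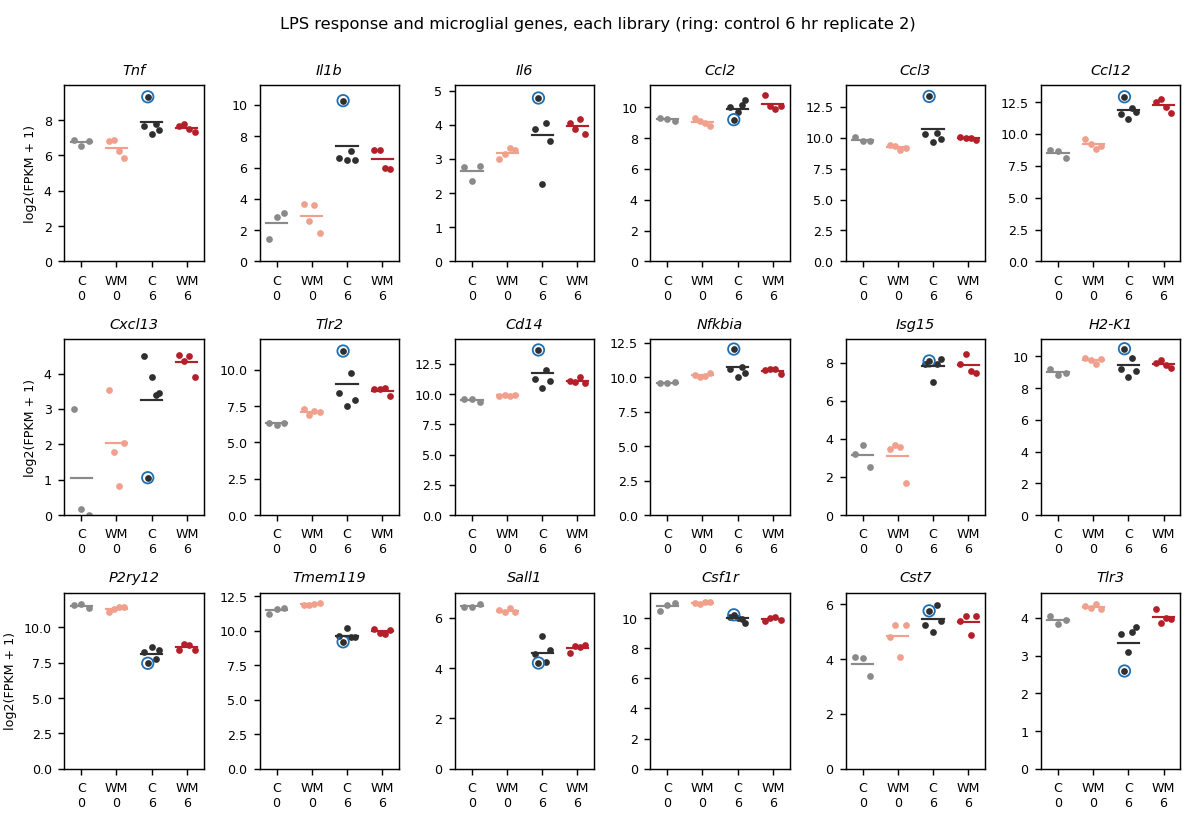
log2(FPKM + 1) of 18 LPS response and microglial genes, 1 point per library and 1 line per group mean, for control (C) and WM repopulating (WM) cells at 0 and 6 hr after LPS, with control 6 hr replicate 2 ringed. The ringed point is the highest control at 6 hr for Tnf, Il1b, Il6, Ccl3, Ccl12, Tlr2, Cd14, Nfkbia, H2-K1 and Csf1r and the lowest for P2ry12, Tmem119, Cxcl13, Ccl2, Sall1 and Tlr3, and Tlr3 is the one gene of the 18 whose 6 hr groups do not overlap.

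Across gene lists, the called members at 6 hr were few. Of 35 DAM and WAM genes, 3 were higher (Apoe, Axl and Clec7a) and none lower, the median log2 difference was 0.092 and 25 were above 0 (0.20 and 27 without control replicate 2), beside 27 and 14 of 12684 called, a median of 0.0022 and 6386 above 0 for all tested genes. Of 23 purinergic and scavenger receptors 4 were higher (P2ry14, Cd36, Axl and P2rx7), with a median of 0.26. The count of DAM and WAM genes was 1 without WM replicate 2, and that of purinergic and scavenger receptors 2 without WM replicate 1 and 1 without WM replicate 2. Of 43 genes of adhesion, migration and cytoskeleton 2 were higher (Cd34 and Tspan32) and 1 lower (Jam3), with a median of -0.019 (-0.010 without control replicate 2). Their counts were 2 higher and 2 lower without control replicate 2, and 1 higher and 1 lower with voom, where Tspan32 was not called. Of 16 genes of MHC class II and costimulation 1 was higher (H2-DMa), with a median of 0.011, which was 0.25 without control replicate 2. Of 40 lysosomal genes and cathepsins 1 was higher (Ctsh), with a median of 0.12 and 31 above 0, and of 38 genes of cholesterol and lipid handling 1 (Apoe), with a median of 0.087. The study names 13 genes as examples from a larger cluster that differed by origin at each time. Of these 13, 3 were higher (Apoe, Axl and Cd34), with a median of 0.39. That cluster was drawn from these libraries, so the examples are not independent of the values here.

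Limma called none of 38 cytokines and chemokines, 46 genes of TLR and NF-kB signalling, 53 interferon-stimulated genes or 34 homeostatic microglial genes at 6 hr, and voom on recovered reads called none of them either, while 7, 4, 2 and 16 members had an unadjusted p under 0.05, beside 9.18% of all tested genes. The medians of the first 2 lists turned on control replicate 2. With it, the cytokines and chemokines had a median difference of -0.26 and 12 of 38 above 0, and without it 0.053 and 22 of 38, while TLR and NF-kB signalling had -0.22 and 9 of 46 with it and -0.048 and 19 of 46 without it. The interferon-stimulated genes, all 53 of which rose with LPS in each origin, had a median of 0.19 with 43 above 0, and 0.20 with 49 above 0 without that library. The homeostatic genes, of which 29 of 34 fell with LPS in each origin, had a median of 0.24 with 24 above 0, and 1 member, Cd164 (a sialomucin), was called lower without control replicate 2 (-0.69, adjusted p = 0.0236, against -0.52 and 0.248 with it; named after its values were seen). In 21 genes of MHC class I presentation (median 0.12), 33 immediate early genes (0.23), 35 myeloid transcription factors (0.11), 21 complement and Fc receptor genes (0.085), 18 TGF-beta pathway genes (0.091), 20 heat shock genes (-0.12), 24 endoplasmic reticulum chaperones (0.023), 30 proliferation genes (-0.028), 17 glycolytic genes (0.036), 79 cytosolic ribosomal proteins (-0.057) and 84 respiratory chain subunits (0.054), limma and voom called none, with 3, 8, 6, 2, 3, 2, 1, 2, 2, 4 and 4 members at an unadjusted p under 0.05. Without control replicate 2 the medians were 0.22 for MHC class I presentation, 0.10 for immediate early genes, 0.061 for myeloid transcription factors, 0.064 for endoplasmic reticulum chaperones, -0.044 for proliferation, -0.011 for glycolysis and -0.0084 for ribosomal proteins, and those of the other 4 lists moved by less than 1.5 times.

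**Figure D5:**
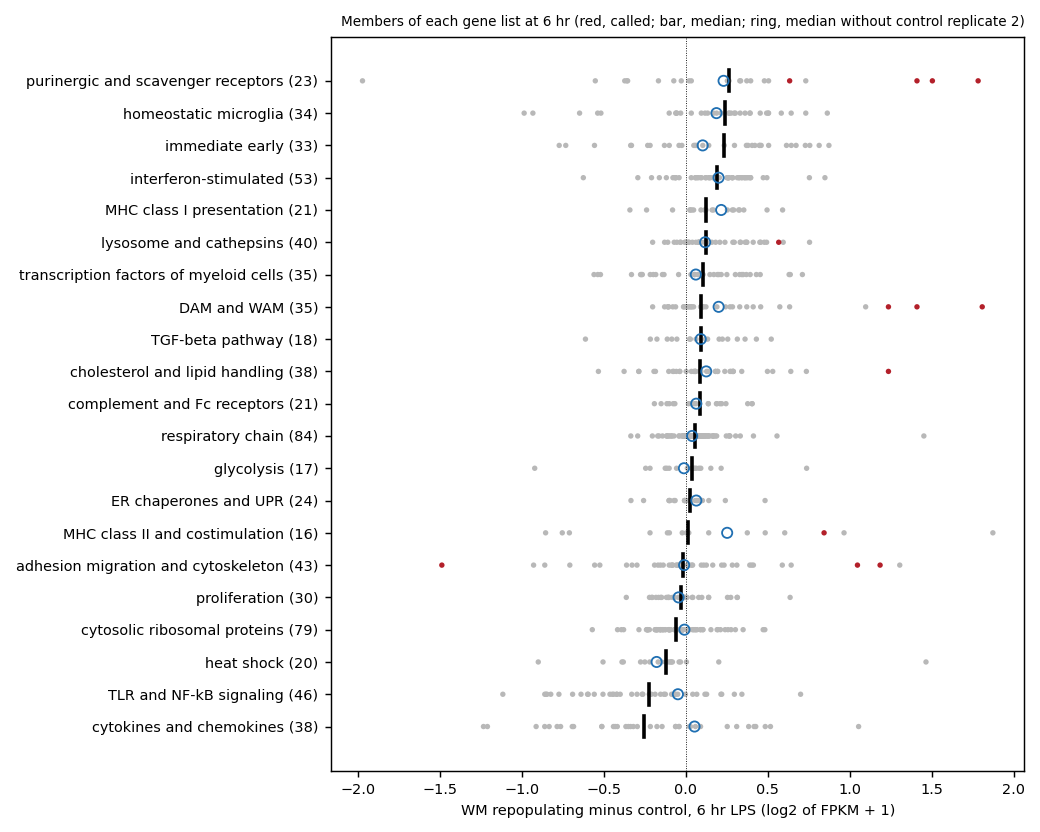
WM repopulating minus control difference at 6 hr, as log2 of FPKM + 1 (x axis), for the members of 21 gene lists (y axis, number tested in brackets), 1 point per gene, red where called, with the median of each list as a bar and the median without control 6 hr replicate 2 as a ring. The bars of cytokines and chemokines and of TLR and NF-kB signalling lie at -0.26 and -0.22 and their rings near 0, and the called genes lie beyond 0.5 in either direction.

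Markers of other cells that the CD11b+CD45int gate could hold were compared between the 6 hr groups. The 13 neutrophil markers summed to 975 to 5893 FPKM in controls and 504 to 10380 FPKM in WM repopulating cells; 1 of the 13 was above 0 in the difference between the groups, with a median of -0.69 (-0.41 without control replicate 2), and 0 had an unadjusted p under 0.05 in limma. The 18 monocyte and bone marrow markers summed to 2846 to 4622 and 2521 to 5891 FPKM. The border-associated macrophage markers (172.5 to 281.5 against 180.3 to 267 FPKM), lymphocyte markers (116 to 281 against 122 to 300), choroid plexus markers (100 to 1372 against 162 to 610), neuronal markers (5.97 to 9.53 against 6.13 to 10.4), oligodendrocyte markers (36.3 to 52.6 against 46.5 to 53.3), astrocyte markers (61.1 to 95.8 against 54.9 to 77.4) and endothelial markers (8.22 to 16.2 against 6.86 to 8.57) overlapped too, as did the 1 erythrocyte marker in the table (0.0965 to 0.872 against 0.244 to 0.858 FPKM). None was at 0 as a list, and besides Cd34 and Cspg4 no marker of these lists was called by limma or voom. In the 6 hr difference 5 of 5 choroid plexus markers tested were above 0, with a median of 0.39 (0.21 without control replicate 2). Of the lymphocyte markers 11 of 14 were above 0 (0.35, and 0.19 without it). Of the border-associated macrophage markers 4 of 13 were (-0.23, and -0.28 without it). The oligodendrocyte precursor sum did not overlap (0.564 to 1.30 against 2.47 to 4.32 FPKM), and Cspg4 alone made up 1.13 to 3.93 FPKM of the latter. At 0 hr the sums of 3 lists did not overlap: choroid plexus markers ran from 76.5 to 222 FPKM in controls and from 283 to 740.0 FPKM in WM repopulating cells, border-associated macrophage markers from 192.5 to 299.8 and from 112 to 171.5 FPKM, and endothelial markers from 9.16 to 13.6 and from 4.78 to 7.62 FPKM. The part of contaminating cells in the differences called at 6 hr and at 0 hr, the persistent genes included, was not tested.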

How the data were processed

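RNA of CD11b+CD45int cells sorted from brain hemispheres was amplified by Smart-seq2 and sequenced in pairs on a NextSeq500 per the study's methods, while the GEO labels describe another library protocol. Per those sources the authors aligned reads with STAR to mm10, counted them with featureCounts and normalised with limma and edgeR. Whether the libraries keep strand was not tested; if they do not, as under the Smart-seq2 protocol, reads of overlapping or antisense genes cannot be told apart. The deposited values were FPKM, computed by the authors per gene and library. No counts were used as deposited, but FPKM steps gave whole reads (within 0.02) for 15283 of 15285 genes, which gave the depth and an alternative fit with limma's voom. Such depths cover counting error only.

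FPKM values were tested as log2(FPKM + 1) with limma 3.58.1 (R 4.3.3; trended eBayes), in 1 fit of 6 groups over all 24 libraries, for genes at 1 FPKM or more in at least 3 libraries, 2-sided, with Benjamini-Hochberg adjustment and a threshold of 0.05. This replaces the count test that the study's methods name, because FPKM are not counts. Groups came from sample titles. Lists were described by counts and medians with no set test. Scripts were tested on simulated data. Tables and figures used Python 3.11.15, pandas 2.3.3, numpy 2.4.6 and matplotlib 3.10.9.

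Genes were named by this rule: of called genes whose groups did not overlap at 6 hr, the 12 largest differences in each direction; the 10 largest of those called at both times; the 5 largest called changes from 0 to 6 hr in each direction; up to 4 called members of each list; and 24 chosen genes. Those named beyond it were chosen after their values were seen. The comparison, the members and the lists were chosen with earlier results of these data known. Alternatives were the pseudocount, the filter, the trend, robust fitting, quantile and median scaling, the groups in the fit, a replicate block, voom and leaving out each library.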

Additional observations from a re-analysis of the deposited data

Results flagged for a closer look

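At 6 hr the highest or lowest library lay far from the rest of its group in 11 of 128 checks (8.59%), with control replicate 2 accounting for 5 of the 11. The checks covered each named gene in each group and the correlation of the libraries with their own group. Chance flags about 1 in 20 of independent, normal values, but these genes share libraries, so the rates are not comparable. Control replicate 2 was far above the other controls for Tnf (637 FPKM), Il1b (1238 FPKM), Ccl3 (10340 FPKM), Cd14 (12770 FPKM) and Nfkbia (4240 FPKM). WM replicate 4 was the lowest of its group for Nfkbia (1224 FPKM), and control replicate 3 the lowest of its group for Isg15 (127 FPKM). Control replicate 3 also stood apart for Jam3 (17.2 FPKM), control replicate 5 for Crhbp (0.568 FPKM) and E030042O20Rik (0.783 FPKM), and control replicate 1 for 2700038G22Rik (13.4 FPKM).

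The limma test of the change in the difference from 0 to 6 hr called Cspg4 (1.54, adjusted p = 0.0415), E030042O20Rik (1.56, adjusted p = 0.0315) and Myo18b (1.35, adjusted p = 0.0261). With voom on recovered reads no change was called. Cspg4 passed the filter through the WM repopulating 6 hr group and Myo18b through the 0 hr controls, where each is high. Their values are therefore a description. At 6 hr E030042O20Rik rested on 3, 3, 3, 3 and 6 fragments in controls and 21, 9, 10 and 14 in WM repopulating cells. E030042O20Rik was lower in WM repopulating cells at 0 hr (-0.84, adjusted p = 0.0337) and stood at 0.72 at 6 hr (adjusted p = 0.0779), with no overlap of the groups at either time.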

How the results depend on the processing

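None of the 41 genes called at 6 hr changed its direction under any alternative that tested it. Among uncalled values, Tnf, Tlr2, Nfkbia and the median of the cytokines and chemokines changed sign without control replicate 2, as did those of the glycolytic genes and of the monocyte and bone marrow (0.086 to -0.088), oligodendrocyte (0.058 to -0.018) and endothelial (-0.029 to 0.081) markers. The 6 hr count of 41 was 16 in a fit of the 2 groups alone and between 30 (voom on recovered reads, chosen after seeing the data; 24 higher and 6 lower, against 27 and 14) and 47 under the other 11 settings that kept every library. The 24 hr count of 503 was 255 in a fit of its groups alone, the 0 hr count of 154 was 100 with a limit of 5 FPKM, and the called purinergic and scavenger receptors went from 4 to 1 in the fit of the 2 groups alone. The 3 called changes from 0 to 6 hr were 1 with a pseudocount of 0.1, 10 with a pseudocount of 5, and 0 with a limit of 5 FPKM, with only the groups compared, with the replicate block and with voom. Without 1 library at a time the counts ranged from 23 to 75 at 6 hr, from 75 to 108 at 0 hr, from 291 to 438 at 24 hr, from 0 to 3 for the change from 0 to 6 hr, from 11 to 21 for genes called at both times, from 4594 to 5510 and from 4211 to 4542 for the LPS response of controls and WM repopulating cells, from 1 to 3 for DAM and WAM and from 1 to 4 for purinergic and scavenger receptors. The genes called at both times were 11 without control 0 hr replicate 2 or WM 6 hr replicate 1. Of the 41 genes, 11 were called under every alternative that tested them. The cause of these shifts was not tested.

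With the replicate number as a block, 39 genes were called at 6 hr (29 higher and 10 lower, 33 of them among the 41) and 15 at both times. The numbers did not pair the samples: the correlations of same-numbered libraries were -0.0996, 0.209, -0.0198 and -0.146, and 1 of the 4 numbers correlated best with its own. Depth limits genes such as Cspg4 and Crhbp, whose controls rest on few fragments.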
